A study of Mus musculus with 2 samples.

Results

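The 9 genes described here, of 27998 counted in each library, encode a secreted guidance signal and its receptors, 4 class 3 semaphorins (Sema3a, Sema3c, Sema3d and Sema3f), both neuropilins (Nrp1 and Nrp2) and 3 plexins (Plxna2, Plxna4 and Plxnd1). They were taken by symbol from the gene lists of the files, by a rule without a measured value, though the set was chosen with earlier results of these data known. The data are 2 droplet single-cell RNA libraries of mouse embryos at E9.5 on a Swiss Webster background, made from live GFP-positive cells sorted out of the pharyngeal apparatus and heart. All embryos carried Mesp1Cre, a Cre driver active in early mesoderm, and 1 Rosa26-GFPflox allele, a reporter that turns on in the cells where Cre has acted and in their descendants. The library labelled Ctrl (Mesp1Cre;Rosa26-GFPflox/+) had no further allele, and the library labelled cKO (Mesp1Cre;Rosa26-GFPflox/+;Tbx1flox/flox) also had both copies of Tbx1 flanked by loxP sites, so that Cre removes this T-box transcription factor from the mesoderm. Each library pooled a pair of embryos and was 1 sample, and the study's methods place the embryos of the library labelled cKO at a slightly later somite stage and list a higher cell viability for them, so genotype, stage and preparation cannot be told apart.

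Class 3 semaphorins are secreted proteins that bind a neuropilin on the receiving cell, and a plexin in the same membrane passes the signal on to the cytoskeleton. The pathway is known for steering axons, neural crest cells and blood vessels. In the heart, SEMA3C guides neural crest cells into the outflow tract, PLXND1 patterns blood vessels, and the neuropilins also bind vascular endothelial growth factors. The comparison of both libraries addresses which genes of this pathway differ in level when Tbx1 is removed from the mesoderm, and the comparison of ligand cells with receptor cells asks whether the same cells carry both.

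Sema3d (5:12383161-12588953), Sema3a (5:13124822-13603485) and Sema3c (5:17574816-17730268) lie in this order on chromosome 5 of the RefSeq annotation of GRCm38.p6. Sema3f lies at 9:107681499-107710475, Nrp1 at 8:128358591-128505476, Nrp2 at 1:62703317-62818692, Plxna2 at 1:194619791-194816869, Plxna4 at 6:32144543-32588192 and Plxnd1 at 6:115954811-115995339. RefSeq gave a promoter for 7 of the 9 genes, all but Sema3f and Plxna4, and the 250 bases before the transcript start used in that table were searched on both strands for GGTGTGA, the half-site that T-box factors bind (TCACACC on the other strand). It occurred in 1 of the 7, that of Nrp2, with its first base 239 bases before the start, and in 894 of all 27025 RefSeq promoters of this length (3.31%). That start is the first base of the gene for Sema3c and Nrp2, while the windows of the other 5 lie partly or wholly inside the gene as given above, that of Sema3a (5:13396534-13396783) far inside it. A match in so short a window is a description of its letters and not a binding site. The windows of Nrp2 (chr1:62703067-62703316) and of Sema3c (chr5:17574566-17574815), the member with the most 2-fold differences between the libraries in the 6 classes compared below, are shown from the plus strand, 5′ to 3′, with the match in capitals.
Nrp2: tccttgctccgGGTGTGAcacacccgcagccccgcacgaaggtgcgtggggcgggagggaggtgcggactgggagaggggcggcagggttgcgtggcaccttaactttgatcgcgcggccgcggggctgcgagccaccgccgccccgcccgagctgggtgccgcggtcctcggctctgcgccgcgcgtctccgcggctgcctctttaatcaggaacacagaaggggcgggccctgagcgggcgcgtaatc
Sema3c: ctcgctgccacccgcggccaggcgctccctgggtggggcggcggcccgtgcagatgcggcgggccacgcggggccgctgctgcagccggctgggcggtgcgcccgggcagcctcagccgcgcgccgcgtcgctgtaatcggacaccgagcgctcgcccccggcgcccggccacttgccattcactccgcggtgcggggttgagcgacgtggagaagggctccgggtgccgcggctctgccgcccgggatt

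The files held 7418 cells and 132017331 UMIs (unique molecular identifiers, each a counted RNA molecule) in the library labelled Ctrl and 10281 cells and 162874391 UMIs in the library labelled cKO, of which 6591 and 8969 cells were kept, with medians of 16854 and 14189 UMIs. Both libraries shared 15 cell barcodes. Kept cells were clustered without any of the 9 genes and named from markers, the names ending in -like: MLP-like cells for the multilineage primed progenitors of the cardiopharyngeal mesoderm (1026 cells in the library labelled Ctrl, 1359 in the other), BrM-like for progenitors of branchiomeric muscle (319 and 407), SoM/aSHF-like for the somatic mesoderm with the anterior part of the second heart field (463 and 537), pSHF-like for its posterior part (1148 and 1179), CM-like for heart muscle cells (275 and 467), endothelium-like (368 and 382) and 8 further classes, of which erythroid-like cells (151) came from the library labelled cKO alone. The line between MLP-like and BrM-like cells was not sharp. A cluster led by Nkx2-3 and Tlx1 (372 and 405 cells) counted as MLP-like with 8 of the 8 markers of that list but also had 6 of the 7 BrM markers, and another random seed of the clustering, tried after the data had been seen, gave 699 and 995 MLP-like and 530 and 702 BrM-like cells. A further cluster led by Prdm1 and Pax8 (193 and 358 cells) had 6 of the 8 MLP markers but stayed unnamed. Its cells are outside the MLP-like values. Levels are the UMIs of a gene per 1000000 UMIs of its class (counts on this scale are written CPM), with exact 95% Poisson intervals in parentheses. All intervals cover counting error only, and with 1 library per group no test between genotypes was possible. A gene with 0 UMIs in a class could have a level of up to 3 counts, equal to 0.141 to 0.601 CPM in the 6 classes named first.

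Tbx1, the targeted gene, was higher in the library labelled cKO, at 26.4 CPM over all kept cells of the library labelled Ctrl and 44.8 in the other (log2 ratio 0.76, 0.70 to 0.82). Among the named classes where it was measured, it was higher, with intervals above 0, in MLP-like, SoM/aSHF-like, pSHF-like, pharyngeal mesenchyme-like and sclerotome-like cells, and BrM-like cells were the only class with an interval below 0. Tbx1 stood at 58.5 (55.0 to 62.2) CPM in MLP-like cells of the library labelled Ctrl and at 104 (99.4 to 108) in those of the library labelled cKO, and at 127 (119 to 136) and 104 (96.5 to 112) in BrM-like cells. The counts come from the 3′ end of transcripts and do not show whether the floxed part is present, so Tbx1 does not check the labels. Aplnr, the apelin receptor, and Pax8, a paired box transcription factor, which the study followed as genes that respond to the loss of Tbx1, were looked at for this purpose. Aplnr in MLP-like cells was at 33.4 (30.7 to 36.2) CPM in the library labelled Ctrl and at 0.328 (0.132 to 0.676) in the other, and Pax8 at 0.229 (0.0624 to 0.587) and 11.2 (9.79 to 12.7), so Aplnr was far lower and Pax8 far higher in the library labelled cKO. Aplnr in endothelium-like cells was at 59.0 and 53.5 with overlapping intervals. Both genes may have been picked on these same libraries and are not independent evidence of the genotype. On sections of other embryos, the study also saw less Aplnr and more Pax8 RNA in conditional mutants by in situ hybridization. Marker lists of cells that Mesp1Cre should not label, and of macrophages, were also summed. Over all kept cells, 7 neural crest genes came to 48.1 and 32.8 CPM, of which Ets1, a factor also known from endothelium, gave 38.5 and 26.2 (121 and 100.2 in endothelium-like cells). In MLP-like cells the neural crest sum was 54.6 and 29.9, of which Ets1 gave 42.4 and 18.6. The 6 epithelial genes came to 105.2 and 151.8 over all kept cells, and in CM-like and SoM/aSHF-like cells the epithelial sum was 274 and 454, and 304 and 434. Krt18, a keratin, gave most of it in SoM/aSHF-like cells (172 and 255), where 3 of the 6 genes were at 0 in both libraries. The 6 neuronal genes came to 9.41 and 15.5 over all kept cells and to 19.6 and 37.7 in endothelium-like cells. The 5 macrophage genes came to 2.31 and 1.82 over all kept cells and to 0.927 or less in each of the 6 classes. The part of such cells in the results below was not tested.

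**Figure D1:**
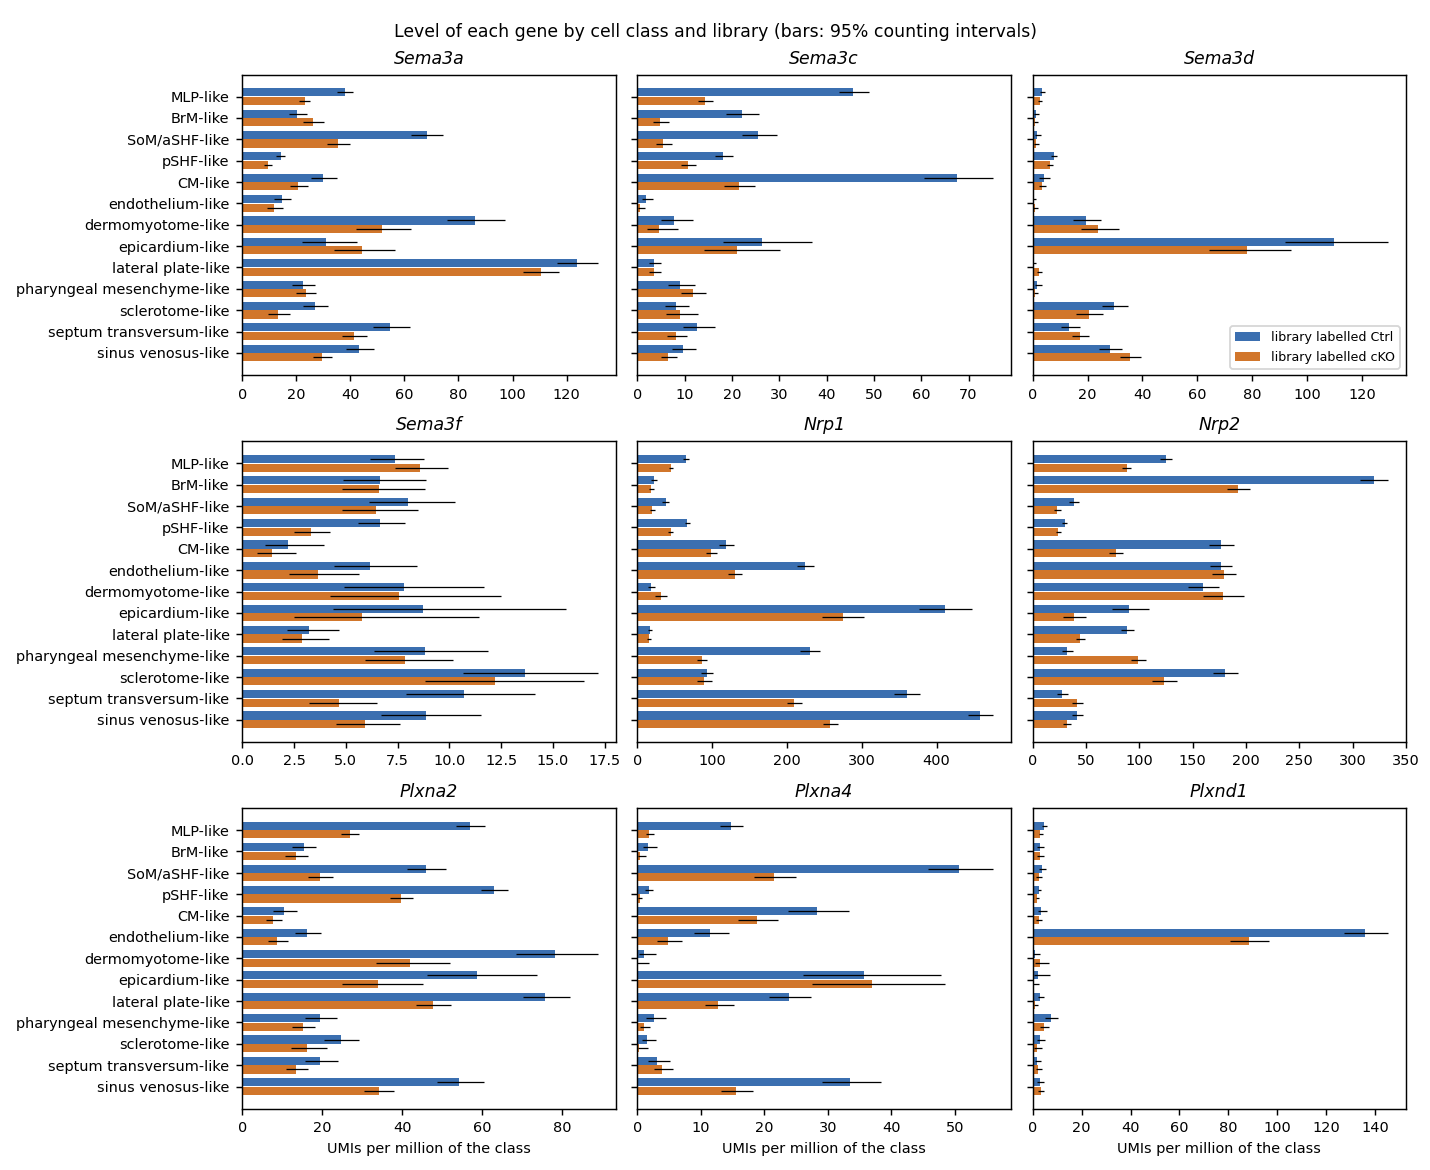
Levels of the 9 genes in CPM of the class (horizontal axis, linear from 0, its range set per gene) by cell class (vertical axis), with 1 bar for each library and bars of error giving 95% Poisson intervals. Plxnd1 stands at 136 and 88.3 in endothelium-like cells and at 7.37 or less in every other class, whereas Nrp2 is spread over many classes with its highest level, 319.8 and 193, in BrM-like cells.

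The ligands had different source cells. Sema3a, a repellent of axons, was highest in lateral plate-like cells, at 124 (117 to 132) CPM in the library labelled Ctrl and 110.4 (104 to 117) in the library labelled cKO. Dermomyotome-like (86.0 and 51.5), SoM/aSHF-like (68.3 and 35.5) and septum transversum-like cells (54.8 and 41.3) followed, each apart from the next in the library labelled Ctrl. pSHF-like cells (14.2 and 9.51) and endothelium-like cells (14.7 and 11.9) were lowest in both libraries apart from erythroid-like cells. Sema3a lay between in the other classes, where sinus venosus-like cells had 43.4 and 29.5, MLP-like 38.0 and 23.1, epicardium-like 31.0 and 44.1, CM-like 29.9 and 20.7, sclerotome-like 26.9 and 13.1, pharyngeal mesenchyme-like 22.3 and 23.4 and BrM-like 20.4 and 26.1. The 3 clusters of MLP-like cells were unlike in Sema3a, at 54.0 (49.5 to 58.7) and 31.4 (28.4 to 34.6) in the one led by Irx1, 19.4 and 12.5 in the one led by Nkx2-3 and 6.79 and 7.32 in the one led by Meox1.

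Sema3c, the semaphorin of the outflow tract, had its highest levels in CM-like and MLP-like cells of the library labelled Ctrl, at 67.5 (60.5 to 75.2) and 45.7 (42.5 to 48.9), whose intervals did not overlap. Epicardium-like (26.2), SoM/aSHF-like (25.6), BrM-like (22.0) and pSHF-like cells (18.2) came next with overlapping intervals, and lateral plate-like (3.56) and endothelium-like cells (1.85) came last. In the library labelled cKO the levels of CM-like (21.4), epicardium-like (21.0) and MLP-like cells (14.3) led and each overlapped the next. The remaining Sema3c levels were 12.7 and 8.07 in septum transversum-like, 9.67 and 6.52 in sinus venosus-like, 9.01 and 11.6 in pharyngeal mesenchyme-like, 8.14 and 9.02 in sclerotome-like and 7.78 and 4.55 in dermomyotome-like cells.

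CM-like cells were not of 1 kind in Sema3c. They fell into a cluster led by Myh6, which encodes a heavy chain of atrial and embryonic muscle (138 and 278 cells), and another led by Myl2, a ventricular light chain (137 and 189 cells). Sema3c was at 26.4 (20.3 to 33.7) and 10.1 (7.32 to 13.6) in the Myh6 cluster and at 107 (94.3 to 120.0) and 35.7 (29.6 to 42.7) in the Myl2 cluster. The Myl2 cluster was itself mixed. The first clustering pass, which also left out the 9 genes, divided CM-like cells into a cluster led by Myh6 (134 and 279 cells), one led by Myl2 and the atrial peptide gene Nppa (63 and 98) and one led by Tdgf1, a co-receptor of Nodal, and Ankrd1, a muscle ankyrin repeat protein (70 and 86). Sema3c was at 191 (168 to 218) and 54.1 (42.6 to 67.7) in the Tdgf1 cluster, but only at 28.2 (19.8 to 38.8) and 22.3 (16.0 to 30.2) in the one led by Myl2 and Nppa and at 26.4 (20.3 to 33.9) and 10.1 (7.30 to 13.6) in the Myh6 cluster. The high level therefore lay in the Tdgf1 cluster, and the intervals of both libraries were apart there and in the Myh6 cluster but overlapped in the cluster led by Myl2 and Nppa.

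Sema3d, which in the mouse is known from epicardium, sinus venosus and pulmonary vein development, was highest in epicardium-like cells of both libraries, at 109.7 (92.2 to 129.6) and 78.1 (64.1 to 94.4). Sclerotome-like (29.7 and 20.4), sinus venosus-like (28.1 and 35.5), dermomyotome-like (19.3 and 23.7) and septum transversum-like cells (13.3 and 17.4) formed a lower group, in which each overlapped its neighbour except that sinus venosus-like cells stood apart at its top in the library labelled cKO. Sema3d was at 7.71 and 6.21 in pSHF-like cells and at 4.01 or less in each other class. Sema3f, a ligand that prefers NRP2, stayed low throughout, from 2.20 (1.10 to 3.94) in CM-like to 13.6 (10.7 to 17.2) in sclerotome-like cells of the library labelled Ctrl and from 1.45 to 12.2 in the same classes of the library labelled cKO, where erythroid-like cells had none (0 of 3956751 UMIs, which allows up to 0.758 CPM). All neighbours in the order of Sema3f overlapped in both libraries.

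The neuropilins had different distributions. Nrp1, the co-receptor for SEMA3A and for VEGF-A, was highest around the inflow of the heart. Among cells labelled Ctrl its level was 458 (441 to 475) in sinus venosus-like, 411 (376 to 448) in epicardium-like and 360.5 (343 to 378) in septum transversum-like cells, each overlapping the next. Pharyngeal mesenchyme-like (230.3) and endothelium-like cells (225) overlapped below them, and CM-like (119), sclerotome-like (92.6), pSHF-like (66.8), MLP-like (65.3) and SoM/aSHF-like cells (37.6) came after. Nrp1 was lowest in BrM-like (22.1), dermomyotome-like (17.9) and lateral plate-like cells (16.2). Among cells labelled cKO the order began with epicardium-like (274), sinus venosus-like (258) and septum transversum-like cells (209.9), then endothelium-like (130.2), CM-like (98.7), sclerotome-like (89.3), pharyngeal mesenchyme-like (86.5), MLP-like (44.4), pSHF-like (44.2), dermomyotome-like (30.8), SoM/aSHF-like (19.5), BrM-like (18.6) and lateral plate-like cells (15.4).

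Nrp2, which binds SEMA3C and SEMA3F and is known from lymphatic and venous endothelium, was highest in BrM-like cells, at 319.8 (307 to 333) and 193 (183 to 204). In the library labelled Ctrl, sclerotome-like (181), CM-like (177), endothelium-like (177) and dermomyotome-like cells (159) followed with overlapping intervals, then MLP-like (125), epicardium-like (90.6), lateral plate-like (88.9), sinus venosus-like (41.8), SoM/aSHF-like (38.4), pharyngeal mesenchyme-like (32.1), pSHF-like (30.05) and septum transversum-like cells (27.7). On the cKO side, BrM-like cells overlapped endothelium-like (179), which overlapped dermomyotome-like cells (178), and sclerotome-like (123), pharyngeal mesenchyme-like (99.1), MLP-like (88.0), CM-like (78.1) and lateral plate-like cells (44.5) came next. The lowest there were septum transversum-like (41.8), epicardium-like (38.4), sinus venosus-like (32.0), pSHF-like (24.0) and SoM/aSHF-like cells (23.3).

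Clusters of 1 class were also unlike in Nrp2. It stood at 8.65 (5.35 to 13.2) and 8.47 (5.93 to 11.7) in the Myh6 cluster of CM-like cells and at 336 (314 to 359.7) and 167 (153 to 181) in the Myl2 cluster. That cluster averaged unlike cells, since in the first pass Nrp2 was at 691 (645 to 739.6) and 372 (341 to 405) in the Tdgf1 cluster and at 29.7 (21.1 to 40.6) and 12.5 (7.91 to 18.7) in the one led by Myl2 and Nppa. The endothelium-like cells led by Cldn5, a junction protein of vessels, had 256 and 256, and those led by Klf2, a flow-responsive factor high in endocardium, had 47.7 (39.4 to 57.1) and 36.0 (28.0 to 45.5). Among MLP-like cells the Nkx2-3 cluster had 205 (193 to 218) and 176 (165 to 188), the Irx1 cluster 101 and 62.5 and the Meox1 cluster 54.8 and 54.2. Nrp1 was more even within heart muscle and endothelium, at 105 and 83.5 in the Myh6 and 131 and 118 in the Myl2 cluster, and at 238 and 138 in the Cldn5 and 202 and 115 in the Klf2 cluster. In MLP-like cells Nrp1 was lowest in the Nkx2-3 cluster, at 19.97 and 24.9, against 80.5 and 48.7 in the Irx1 and 98.7 and 56.8 in the Meox1 cluster.

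Of the plexins, Plxna2, a receptor that pairs with the neuropilins in neural crest and neurons, was broadly present. Its Ctrl levels were 78.2 (68.4 to 88.9) in dermomyotome-like and 75.9 in lateral plate-like cells, which overlapped, and then 63.0 in pSHF-like, 58.8 in epicardium-like, 57.0 in MLP-like, 54.3 in sinus venosus-like and 45.9 in SoM/aSHF-like cells, each overlapping the next. It was lower, from 24.6 in sclerotome-like to 10.4 in CM-like cells, in the other 6 classes. Plxna2 in the library labelled cKO ran from 47.6 in lateral plate-like cells over dermomyotome-like (41.9), pSHF-like (39.8), sinus venosus-like (34.1) and epicardium-like (34.0) to MLP-like (26.9) and SoM/aSHF-like cells (19.4), and to 7.78 in CM-like cells.

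Plxna4, best known as the receptor of SEMA3A in sensory and sympathetic neurons, was uneven among the progenitors of the library labelled Ctrl. SoM/aSHF-like cells had 50.7 (45.8 to 56.0) and MLP-like cells 14.8 (13.0 to 16.7), but pSHF-like cells only 1.79 (1.26 to 2.47) and BrM-like cells 1.74 (0.897 to 3.03). Epicardium-like (35.8 and 36.9), sinus venosus-like (33.5 and 15.5), CM-like (28.3 and 18.9), lateral plate-like (23.9 and 12.8) and endothelium-like cells (11.4 and 4.76) also had it, and Plxna4 was at 3.83 or less in septum transversum-like, pharyngeal mesenchyme-like, sclerotome-like and dermomyotome-like cells of both libraries. Plxnd1, the plexin of endothelium that SEMA3E binds without a neuropilin, was at 136 (127 to 145) and 88.3 (80.5 to 96.5) in endothelium-like cells, 155 and 101 in the Cldn5 and 104 and 64.7 in the Klf2 cluster, and at 7.37 or less in each other class of either library.

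**Figure D2:**
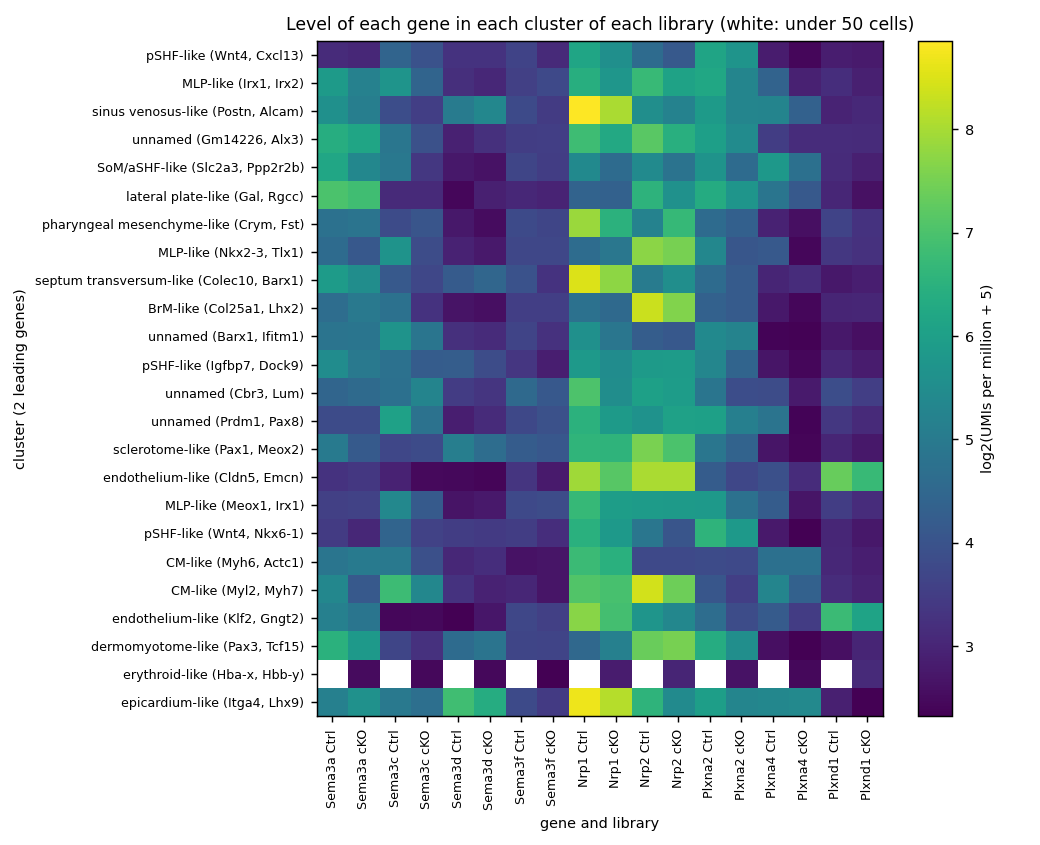
Each row is a cluster, named by its class and its 2 leading genes, each column a gene in 1 library, and the colour the level as log2(CPM + 5), with white for clusters of under 50 cells in a library. The Nrp2 columns run from low to high within CM-like and within endothelium-like clusters (8.65 in the Myh6 against 336 in the mixed Myl2 cluster, and 47.7 against 256, in the library labelled Ctrl), and the Plxna4 columns of the MLP-like clusters differ between the libraries.

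Shares of cells with at least 1 UMI were taken after each cell had been thinned to 5000 UMIs, which left out 71 and 100 shallower cells. Among MLP-like cells, Sema3c had a UMI in 17.98% (15.7 to 20.5) of the Ctrl cells and 5.71% (4.53 to 7.08) of those labelled cKO (Clopper-Pearson intervals). Plxna4 had one in 6.68% (5.22 to 8.39) and 0.593% (0.256 to 1.17) of them, and Plxna2 in 22.3% (19.8 to 24.98) and 11.9% (10.2 to 13.7). Before thinning these shares were 37.8% and 15.8% for Sema3c, 18.1% and 2.65% for Plxna4 and 48.2% and 29.5% for Plxna2. Erythroid-like cells, found in the library labelled cKO alone, had a median of 25038 UMIs before thinning. Their thinned shares ran from 0% to 1.32% (0.161 to 4.70) for Nrp2, and before thinning Plxnd1 was found in 8.61% of them. Plxna4 had a thinned UMI in 1 of these 151 cells (0.662%, 0.0168 to 3.63), too few to set a background. Whether the Plxna4 share in MLP-like cells of the library labelled cKO stood above background was not tested.

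Other classes had higher thinned shares of single members. Nrp1 was found in 85.0% (73.4 to 92.9) and 64.0% (52.9 to 74.0) of epicardium-like cells and 58.4% and 42.7% of endothelium-like cells. Nrp2 was found in 66.8% (61.3 to 71.9) and 47.6% (42.7 to 52.6) of BrM-like cells, and Plxnd1 in 46.3% (41.1 to 51.6) and 31.9% (27.2 to 36.9) of endothelium-like cells. Among the ligands, Sema3a reached 45.0% and 37.5% in lateral plate-like cells and Sema3d 36.7% and 25.6% in epicardium-like cells, while the thinned share of Sema3f was at most 7.09% in any class.

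Between the libraries, most of the measured levels were lower in the library labelled cKO, and Sema3c, Plxna2 and Plxna4 were at least 2-fold lower in MLP-like and in SoM/aSHF-like cells. A level counted as measured with at least 10 CPM and 30 UMIs in 1 library, and a difference counted when it was 2-fold or more. Over the 6 classes the 9 genes gave 34 measured pairs of a gene and a class, of which 32 were lower in the library labelled cKO, 28 with an interval of the ratio below 0 on the log2 scale, and 10 were 2-fold or more lower. All genes also leaned this way. Over the same classes 61.2% of their measured pairs were lower and 37.0% had an interval below 0, with 4752 of 7717 genes lower in MLP-like and 4699 of 7595 in pSHF-like cells. By class, intervals below 0 were found for 6 of 6 measured members in MLP-like cells (45.2% of all genes), 2 of 5 in BrM-like (36.6%), 6 of 6 in SoM/aSHF-like (34.6%), 5 of 5 in pSHF-like (44.6%), 5 of 6 in CM-like (29.9%) and 4 of 6 in endothelium-like cells (31.6%). Sema3d and Sema3f did not reach the floor in any of the 6 classes.

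In MLP-like cells 3 of 6 measured members were 2-fold or more lower, against 250 of 7717 genes (3.87% of all genes in either direction). The median log2 ratio of the library labelled cKO over Ctrl was -0.90 for the members and -0.10 for all genes. Sema3c was 3.18-fold lower (log2 ratio -1.67, exact conditional interval -1.86 to -1.48). Plxna2, at 57.0 (53.6 to 60.7) and 26.9 (24.8 to 29.2), had a log2 ratio of -1.08 (-1.23 to -0.93). Plxna4 differed most, with 258 UMIs against 40 in the library labelled cKO, a 7.88-fold lower level (5.63 to 11.3). The size of this difference moved with the processing, from a log2 ratio of -5.58 in the first clustering pass to -2.20 with doublets kept, around -2.98. This held in each of the 3 clusters of MLP-like cells, where Plxna4 was at 16.0, 12.9 and 13.6 in the library labelled Ctrl and at 2.56, 0.398 and 1.46 in the library labelled cKO. Sema3a (-0.72, -0.89 to -0.55), Nrp1 (-0.56, -0.68 to -0.43) and Nrp2 (-0.51, -0.60 to -0.42) were lower by less than 2-fold. The Nrp2 difference turned with the clustering, to 0.04 in the first pass and 0.19 without integration of the libraries.

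In BrM-like cells 1 of 5 measured members was 2-fold lower, against 321 of 7647 genes (5.73% of all genes in either direction). It was Sema3c, with 152 UMIs against 32, a level of 22.0 (18.6 to 25.8) against 4.69 (3.21 to 6.62) and a log2 ratio of -2.23 (-2.83 to -1.67). Nrp2, whose highest level was in this class, had a log2 ratio of -0.73 (-0.83 to -0.63). Plxna2 (-0.20, -0.62 to 0.22) and Nrp1 (-0.25, -0.60 to 0.10) had intervals across 0. Sema3a was higher in the library labelled cKO (0.35, 0.03 to 0.68), but between -0.12 and -0.01 under 5 alternatives, among them another random seed (-0.02). The median of the members was -0.25 and that of all genes -0.11.

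SoM/aSHF-like cells had 3 of 6 measured members 2-fold lower, against 181 of 7755 genes (2.9% of all genes in either direction). The medians were -1.09 for the members and -0.11 for all genes. Sema3c was at 25.6 (22.1 to 29.4) and 5.35 (3.87 to 7.21), a log2 ratio of -2.26 (-2.77 to -1.77), and Plxna2 had -1.24 (-1.52 to -0.96). Plxna4, which had its highest Ctrl level here, had -1.24 (-1.504 to -0.97), and -0.99 with another random seed of the clustering. Nrp1 (-0.95, -1.24 to -0.66) and Sema3a (-0.95, -1.16 to -0.73) were just under 2-fold lower but passed it without integration of the libraries (-1.13 and -1.02), where 5 members did, and Nrp2 had -0.72 (-0.995 to -0.45). In pSHF-like cells none of 5 measured members was 2-fold lower, against 49 of 7595 genes (1.13% of all genes in either direction). All 5 intervals lay below 0, beside 44.6% for all genes. They ran from Nrp2 (-0.32, -0.50 to -0.14) over Sema3a (-0.58), Nrp1 (-0.59) and Plxna2 (-0.66) to Sema3c (-0.76, -1.02 to -0.50), with a median of -0.59 and -0.10 for all genes.

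In CM-like cells 2 of 6 measured members were 2-fold lower, against 119 of 7813 genes (2.1% of all genes in either direction). They were Sema3c (-1.66, -1.94 to -1.39) and Nrp2 (-1.18, -1.33 to -1.03). The medians were -0.56 for the members and -0.08 for all genes. In the first pass, most of the Nrp2 UMIs came from the Tdgf1 cluster (834 from 70 cells and 523 from 86), against 39 from 63 cells and 23 from 98 in the cluster led by Myl2 and Nppa and 20 from 134 and 35 from 279 in the Myh6 cluster. The Tdgf1 cluster made up 26.2% of the CM-like cells of that pass in the library labelled Ctrl and 18.6% in the other, and within it Nrp2 was 1.86-fold lower (log2 ratio -0.89, -1.05 to -0.73), under 2-fold, so the ratio of the class held both a smaller share of this cluster and a lower level in it. Nrp2 had -1.25 (-2.06 to -0.47) in the cluster led by Myl2 and Nppa and -0.05 (-0.89 to 0.82) in the Myh6 cluster. Sema3c was 3.54-fold lower within the Tdgf1 cluster (-1.82, -2.22 to -1.44), with -1.39 (-1.99 to -0.81) in the Myh6 cluster and -0.34 (-1.02 to 0.34) in the one led by Myl2 and Nppa, and the smaller share of the Tdgf1 cluster entered its ratio over the class as well. Plxna4 (-0.58, -0.93 to -0.24), Sema3a (-0.53) and Nrp1 (-0.27) were lower by less, and the interval of Plxna2 crossed 0 (-0.42, -0.98 to 0.14). In endothelium-like cells 1 of 6 measured members was 2-fold lower, against 146 of 7800 genes (2.36% of all genes in either direction). It was Plxna4, with 74 UMIs against 26 (-1.26, -1.97 to -0.60). The medians were -0.71 for the members and -0.10 for all genes. The endothelial receptors Nrp1 (-0.79, -0.92 to -0.66) and Plxnd1 (-0.62, -0.79 to -0.46) were lower by less than 2-fold, Plxna2 had -0.92 and Sema3a -0.30 (-0.78 to 0.17), and the interval of Nrp2 crossed 0 (0.02, -0.11 to 0.14).

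**Figure D3:**
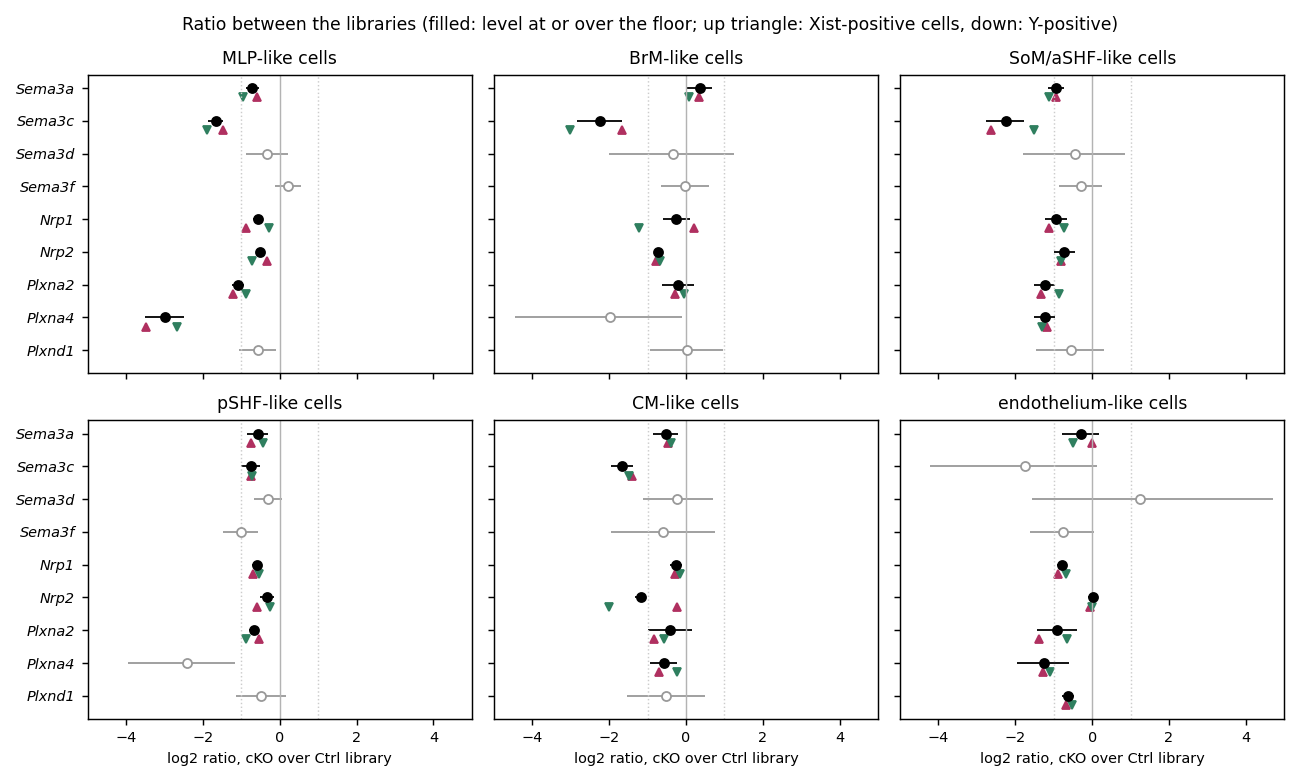
Log2 ratio of the level in the library labelled cKO over that in the library labelled Ctrl (horizontal axis) for the 9 genes (vertical axis) in the 6 classes, with exact 95% intervals. Filled points had a level at or over the floor, and triangles give the ratio in Xist-positive and in Y-positive cells alone. The point of Plxna4 in MLP-like cells lies at -2.98 and those of Nrp2 in CM-like cells by sex at -0.24 and -2.002.

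Each pool held cells with Xist, the transcript of the inactive X chromosome, and cells with Y-linked transcripts, so it held embryos of both sexes, and the ratios were taken in each kind of cell. In a pool of 2 embryos each sex is a single embryo, so sex and embryo cannot be told apart in these values. Sema3c was lower in both, with log2 ratios of -1.49 and -1.90 in MLP-like, -1.68 and -3.01 in BrM-like, -2.63 and -1.51 in SoM/aSHF-like and -1.41 and -1.47 in CM-like cells (Xist-positive first). Plxna4 in MLP-like cells had -3.48 and -2.66. Plxna2 had -1.22 and -0.88 in MLP-like and -1.34 and -0.86 in SoM/aSHF-like cells, under 2-fold in the Y-positive cells of both classes. Nrp2 in CM-like cells was nearly level in Xist-positive cells (-0.24, -0.46 to -0.01) and far lower in Y-positive cells (-2.002, -2.31 to -1.70), so its 2-fold difference rested on the Y-positive cells. Nrp1 in BrM-like cells also parted by sex, with 0.20 and -1.21.

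Pharyngeal mesenchyme-like cells (300 and 577), chosen for description after their values had been seen, were the class with the largest opposite differences of the neuropilins. Nrp1 was at 230.3 (217 to 244) in the library labelled Ctrl and 86.5 (79.8 to 93.6) in the other, with a log2 ratio of -1.41 (-1.56 to -1.27), and Nrp2 at 32.1 (27.3 to 37.6) and 99.1 (92.0 to 107), a ratio of 1.63 (1.37 to 1.88). Thinned shares had the same directions, 59.3% against 29.3% for Nrp1 and 12.2% against 33.2% for Nrp2. Here 2 of 5 measured members passed 2-fold, against 3.49% of all genes, and Tbx1 was at 61.4 and 113. By sex, Nrp1 had -1.40 in Xist-positive and -0.99 in Y-positive cells, and Nrp2 had 0.56 and 2.31, so the Nrp2 difference was larger in the Y-positive cells. Septum transversum-like cells also had less Nrp1 (-0.78, -0.88 to -0.68) and more Nrp2 (0.59, 0.29 to 0.90) in the library labelled cKO, with Nrp2 at 27.7 and 41.8, and there the cells with Xist gave an Nrp2 ratio of 0.98 and the Y-positive ones -0.18 (-0.77 to 0.40).

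**Figure D4:**
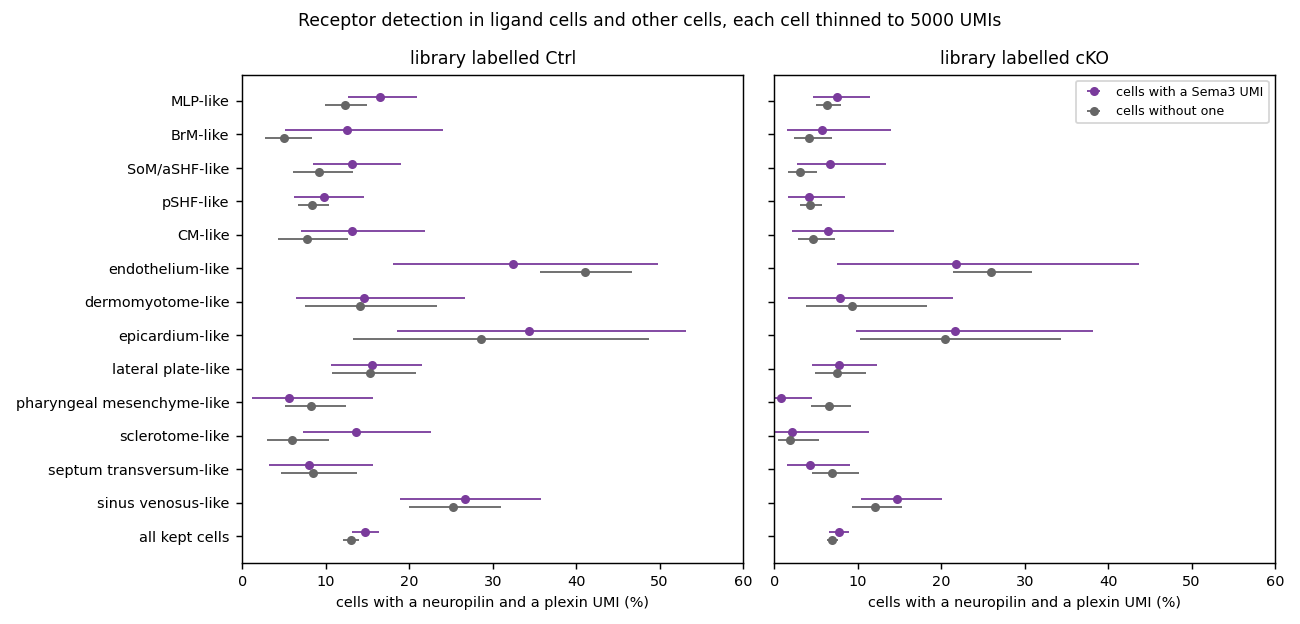
Percent of cells with both a neuropilin UMI and a plexin UMI (horizontal axis) by class (vertical axis), among cells with a UMI of any of the 4 semaphorins and among the others, in 1 panel for each library, with 95% Clopper-Pearson intervals and each cell thinned to 5000 UMIs. The library labelled Ctrl has 14.8% and 13.0% over all kept cells, the library labelled cKO 7.71% and 6.96%, and within classes the intervals of ligand and other cells overlap.

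Ligand and receptors were carried by overlapping sets of cells. After thinning, 29.0% of kept Ctrl cells had a UMI of a semaphorin member and 13.5% had both a neuropilin and a plexin UMI. The receptor pair was found in 14.8% (13.2 to 16.4) of the ligand cells and 13.0% (12.1 to 14.0) of the others, 1.74 percentage points apart with overlapping intervals. For the library labelled cKO, 21.9% were ligand cells and 7.13% receptor cells, with 7.71% (6.57 to 8.99) of ligand cells and 6.96% (6.37 to 7.59) of the others, 0.751 points apart. The difference depended on the depth. In the library labelled Ctrl it was -0.18 points at 3000 UMIs, 8.28 without thinning and 8.96 without thinning when at least 2 UMIs were asked for, and in the library labelled cKO it was 2.31 at 8000 UMIs, 5.90 without thinning and 4.74 with at least 2 UMIs.

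The classes differed more than ligand cells from other cells. Among cells labelled Ctrl the receptor pair was found in 40.2% of endothelium-like, 31.7% of epicardium-like and 25.7% of sinus venosus-like cells and in 6.33% of BrM-like cells. Apart from erythroid-like cells, endothelium-like cells had the fewest ligand cells, 10.2% and 6.22%, and epicardium-like cells the most, 53.3% and 43.0%. Cells with both sides of the pathway made up 18.3% and 9.30% of epicardium-like, 8.29% and 4.57% of sinus venosus-like and 5.30% and 1.48% of MLP-like cells. In MLP-like cells the share of ligand cells was 32.1% and 19.6% and that of receptor cells 13.7% and 6.60%.

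Single pairs showed where a ligand and a neuropilin met in the same cells. In CM-like cells with a Sema3c UMI, Nrp2 was found in 53.5% (39.9 to 66.7) when labelled Ctrl and in 38.2% (22.2 to 56.4) when labelled cKO, against 15.9% and 14.4% of CM-like cells without one. Both genes had their highest level among the 3 CM-like clusters of the first pass in the one led by Tdgf1. Over all kept cells, those with a Sema3d UMI had Nrp1 in 43.0% and 49.2%, against 30.7% and 24.5% of the others. Sema3a and Nrp1 went the other way, with Nrp1 in 24.4% (21.8 to 27.2) and 21.5% (19.1 to 24.1) of cells with Sema3a and 32.4% (31.1 to 33.6) and 25.9% (24.9 to 26.9) of those without. The values with Nrp1 mix all classes. Lateral plate-like cells, for example, had the highest Sema3a (124 CPM) and the lowest Nrp1 (16.2 CPM) of the library labelled Ctrl. The part of the class make-up in these values was not tested. All 3 pairs of this paragraph were chosen out of 580 combinations after their values had been seen.

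Of the wider pathway, 56 genes in 6 lists chosen for this description, between 21 and 25 were measured in each class. The share 2-fold apart was 5 of 24 in MLP-like, 5 of 22 in BrM-like, 4 of 23 in SoM/aSHF-like, 1 of 22 in pSHF-like, 2 of 21 in CM-like and 2 of 25 in endothelium-like cells, all lower in the library labelled cKO except Cxcl12 in BrM-like cells. Over all genes the shares were 3.87%, 5.73%, 2.9%, 1.13%, 2.1% and 2.36% in the same order. The count in MLP-like cells was 9 in the first clustering pass and 8 without integration, and that in pSHF-like cells ran from 0 to 3 over the alternatives. Shares of all genes under these alternatives are not given here. Median log2 ratios of these genes were between -0.23 (CM-like) and -0.39 (SoM/aSHF-like), against -0.08 and -0.11 for all genes of these 2 classes. The signal transducers downstream of plexins had 1 of 12 measured genes past 2-fold in SoM/aSHF-like cells and 0 in the other classes. Of the other class 3 semaphorins (Sema3b, Sema3e and Sema3g) none was measured in any of the 6 classes, and of the 6 other plexins 1 or 2 were, none past 2-fold.

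The genes of these lists that reached 50 CPM and differed 2-fold in the 6 classes were 3. Vegfa, the growth factor that neuropilins bind, was at 54.5 and 16.0 in SoM/aSHF-like cells (log2 ratio -1.76, -2.06 to -1.48) and at 51.9 and 20.8 in CM-like cells (-1.32). Efnb2, the ephrin ligand of arteries and migrating mesoderm, was at 57.6 and 16.1 in MLP-like cells (-1.84, -2.02 to -1.66), 111 and 19.3 in BrM-like cells (-2.52), 68.7 and 26.8 in CM-like cells (-1.36) and 95.97 and 41.0 in endothelium-like cells (-1.23). Cxcl12, the ligand of Cxcr4, was at 39.4 and 99.2 in BrM-like cells (1.33, 1.13 to 1.54), but at 459.5 and 214.7 in pharyngeal mesenchyme-like cells (-1.10). Vegfa was also 2-fold or more lower in the 4 other classes, where its levels were under 50 CPM, from 39.5 against 5.57 in BrM-like to 19.5 against 9.34 in endothelium-like cells. Named after their values had been seen, Dpysl3, a collapsin response mediator that acts on the cytoskeleton, was at 49.3 and 19.03 in SoM/aSHF-like cells, Kdr, a receptor of VEGF-A, at 41.8 and 15.8 in MLP-like cells, and Hgf, the ligand of Met, at 18.3 and 5.11 there.

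The genes most alike in level were sought over 47 points, 24 clusters of at least 50 cells with both libraries as separate points, among 4937 genes, by Pearson's r of log2(CPM + 5), a description without a test since the points share libraries. Plxnd1 was most like Sox18 (0.97), Fgd5 (0.97) and Tnfaip2 (0.97). The genes most like Plxna2 included Tshz1 (0.85) and Gga2 (0.81). Sema3d was most like Fgf5 (0.83), Tm4sf5 (0.70) and Mgarp (0.70), and Sema3f like Tcf7l1 (0.81), Dse (0.80) and Marcks (0.79). The nearest genes were 2610001J05Rik (0.81), Itgb1 (0.79) and Epb41l2 (0.79) for Nrp1, Dusp6 (0.70), Sh3bp5 (0.69) and Pcp4 (0.65) for Nrp2, Slc2a3 (0.76), Irf2bpl (0.74) and Rarres2 (0.74) for Plxna4, Cxadr (0.73), Pdk3 (0.72) and Bmp7 (0.69) for Sema3c and Tbx3 (0.71), Pvrl3 (0.68) and Msx2 (0.63) for Sema3a. Among pairs of the members themselves, r was highest for Sema3d with Nrp1 (0.44) and lowest for Sema3c with Plxnd1 (-0.42).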

How the data were processed

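Single-cell RNA was measured in 2 libraries, 1 labelled Ctrl and 1 labelled cKO, grouped by the genotypes in the labels. The values deposited by the authors are raw UMI counts per gene and cell barcode, aligned to mm10 and counted with Cell Ranger 3.1.0 (submitters' processing notes), in matrices of called cells without normalization. Other libraries of the study were not analysed here.

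Cells with at least 1000 genes and at most 10% mitochondrial UMIs were kept, and presumed doublets (416 and 804) were removed by Scrublet score (scanpy 1.11.5) at 0.8% per 1000 cells, since its automatic threshold called 0% of the library labelled Ctrl. Seurat 5.3.0 (R 4.3.3) clustered the cells with 2000 variable genes, 30 dimensions, reciprocal integration and resolution 1. The members, the other listed genes and sex-linked, mitochondrial, ribosomal protein and haemoglobin genes (206 genes) were left out, and after a first pass so were 1041 genes that differed 2-fold between the libraries. Clusters took the name of the list with the largest share of markers found, over 50% and at least 3, with at least 1 among the 10 leading genes. The thresholds were chosen once the data were known, and names rebuilt in this way may differ from the study's populations. Clusters that met no such rule, 1172 and 1744 cells, stayed unnamed, and 7 and 8 macrophage-like cells were too few to describe.

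For each class, the UMIs of its cells in 1 library were added up and scaled to counts per 1000000 (CPM). Ratios carry exact conditional intervals, tested on simulated data, and shares Clopper-Pearson intervals, at 95%. The intervals and the limit of 3 counts cover counting error only. With 1 library per group no p-value was computed. The authors' test over single cells was not run. Class totals were between 4989591 and 20633975 UMIs in the 6 classes of the library labelled Ctrl.

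The members and lists were chosen with earlier results of these data known. All members were named, genes of the wider lists when they reached 50 CPM and differed 2-fold, and the 3 most alike genes per member, of which a single gene is not reported here. Alternatives covered the first pass, no integration, resolution 0.6, doublets kept, all cells, another denominator, equal weights per cell, another random seed and 25 principal components (both added later), cells of each sex, no floor and other thinning depths. Aplnr and Pax8 were added as a check on the labels once the data were known. Promoters came from RefSeq (GRCm38.p6).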

Additional observations from a re-analysis of the deposited data

Results flagged for a closer look

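The results listed here went against the direction of the same gene in other classes, over all named classes with a measured level. The log2 ratio of Sema3a of the library labelled cKO over Ctrl was 0.354 (0.03 to 0.68) in BrM-like cells, while Sema3a was lower in 9 other classes with intervals below 0. It was between -0.12 and -0.01 in 5 of its alternatives. The ratio of Nrp2 was 1.63 in pharyngeal mesenchyme-like and 0.593 in septum transversum-like cells, while Nrp2 was lower in 9 other classes with intervals below 0. By sex, the first was 0.56 in Xist-positive and 2.31 in Y-positive cells and the second 0.98 and -0.18. Nrp1 had a ratio of 0.781 (0.23 to 1.34) in dermomyotome-like cells, with 53 and 61 UMIs, -0.12 among cells with Xist and 0.80 (-0.06 to 1.72) among those with Y-linked transcripts, and was lower in 12 other classes, in 9 with intervals below 0. Sema3d had 0.34 (0.07 to 0.61) in sinus venosus-like cells and was lower in epicardium-like (-0.49) and sclerotome-like cells (-0.54). With 1 library per group none of these differences between classes was tested.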

How the results depend on the processing

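No paired analysis was possible because 1 library per genotype was used here, though the study describes replicates at this stage. The 10 ratios of 2-fold or more kept their sign in all 107 values under 11 alternatives and stayed at 2-fold or more in 103, the exceptions being Plxna2 in Y-positive MLP-like (-0.88) and SoM/aSHF-like cells (-0.86), Plxna4 in SoM/aSHF-like cells with another random seed (-0.99) and Nrp2 in Xist-positive CM-like cells (-0.24). Of the 34 measured ratios, 5 changed sign in 14 of 368 values. These were Nrp2 in MLP-like cells (0.04 in the first clustering pass, 0.19 without integration), Sema3a in BrM-like cells, Nrp1 in Xist-positive BrM-like cells (0.20), and Sema3a and Nrp2 in endothelium-like cells, the last 3 with intervals across 0. The Plxna4 ratio in MLP-like cells ranged from -5.58 to -2.20 over the alternatives. Another random seed and 25 principal components were chosen after seeing the data. Resolution 0.6 gave no MLP-like and no pharyngeal mesenchyme-like class, and in the latter the neuropilins kept their signs in the other alternatives, Nrp2 between 0.56 and 2.31.

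Without the floor, the count of members past 2-fold was 2 in BrM-like, 2 in pSHF-like and 3 in endothelium-like cells. In endothelium-like cells this added Sema3c (12 against 3 UMIs) and Sema3d (2 against 4, higher in the library labelled cKO), both with intervals across 0. The count was 5 in SoM/aSHF-like cells without integration and 2 in Y-positive BrM-like cells. Among Xist-positive cells it was 1 in the CM-like and 2 in the endothelium-like class. Wider pathway genes past 2-fold numbered 9 in MLP-like cells in the first clustering pass and 8 without integration, 3 in pSHF-like cells with doublets kept or all cells, 0 in Xist-positive and 2 in Y-positive ones, 1 in Xist-positive CM-like and 4 in Y-positive endothelium-like cells. The first pass had 576 and 804 MLP-like cells. Numbers measured and shares of all genes under these alternatives are not given here, so the counts of members and wider genes have no background beside them. The receptor share of ligand minus other cells was 8.28 points without thinning, -0.18 at 3000 UMIs and 8.96 with at least 2 UMIs in the library labelled Ctrl, and 5.90 without thinning, 2.31 at 8000 UMIs and 4.74 with at least 2 UMIs in the library labelled cKO. The cause of these changes was not tested. The depth sets a floor of 3 counts, and with 1 library per genotype used here the spread between libraries of a genotype was not measured. Cells of each sex, from 1 embryo each in a pool of 2, differed as given above.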
